A study of Mus with 6 samples.

Results

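The proteasome genes described here are the protein-coding rows of the deposited table whose symbol opens with Psma, Psmb, Psmc, Psmd, Psme or Psmf and a number, with Psmb8 and Psmb9 left out. The rule found 44 genes among 54532. The table comes from RNA sequencing of 6 mouse tissue samples labelled as basolateral amygdala, a brain region known for fear memory, from mice labelled male. Of these, 3 are labelled wild type (WT) and 3 CNTNAP4-KO (KO), for the loss of Cntnap4, a neuronal adhesion protein. Strain, age, the deleted part of the gene and any promoter or Cre line are not stated in the sources used here, and whether each library is 1 animal or a pool is not stated. The series title names a bacterial treatment, and no treated sample was analysed here.

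The proteasome is the large protease that degrades ubiquitin-tagged proteins in the cytosol and nucleus. Its barrel-shaped core is built of outer alpha rings, which gate the entrance, and inner beta rings, which hold the proteolytic sites. A regulatory particle caps the barrel: a base with a ring of ATPases unfolds the substrate, and a lid removes its ubiquitin. Other caps, encoded by the Psme genes, open the gate without ubiquitin recognition. In neurons the proteasome is known for turning over synaptic proteins and for a part in memory formation. Subunits are made for a complex of fixed composition, and the transcription factor NRF1, encoded by Nfe2l1, is known to raise many subunit genes together when proteasome activity is low.

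The level of every gene is given in FPKM, which divides the fragments of a gene by its length and by a measure of library size. Levels can thus be compared between libraries and, as far as the deposited gene lengths hold, between genes. The median-ratio size factor is the median over genes of a library's level relative to the mean of all libraries. It was 1.004 in each of the 6 libraries, so the deposited values were already level by that measure. Libraries held 17647556 to 20813211 reads in genes. In order of replicate number, as in all values below, Cntnap4 itself read 2.03, 3.59 and 4.91 FPKM for WT against 1.61, 1.003 and 1.48 for KO, without overlap (exact two-sided permutation p = 0.1, the smallest that 3 against 3 allow). KO replicate 1 stood apart by sex: it held the female transcript Xist at 43.05 FPKM and 0 reads on 4 Y-linked genes, against 2831 to 4001 reads in the others. KO replicate 2 stood apart by markers of region: 6 genes of hypothalamic neurons summed to 2.66 FPKM there, with Sim1 at 0. The sums were 486 to 954 FPKM in WT, 1068 in KO replicate 1 and 341 in KO replicate 3. Avp and Oxt made up most of these sums. Oxt was also low in KO replicate 3, at 12.5 FPKM, against 133 to 209 in WT and 168 in KO replicate 1. Hcrt, under 1 FPKM in every library, was not lowest in KO replicate 2. Across groups, 8 markers of pallial excitatory neurons summed to 340 to 403 FPKM in WT and 598 to 886 in KO, and 8 markers of oligodendrocytes to 1331 to 1782 and 817 to 1225. Each of the 8 excitatory markers had a positive and each of the 8 oligodendrocyte markers a negative difference, 0 of them called. Nrgn and Camk2a made up most of the excitatory sum, with means of 228 and 129 FPKM in WT and 418 and 219 in KO. Slc17a7 had the largest log2 difference of the 8, with means of 5.83 and 44.9 FPKM. The 6 markers of striatal projection neurons summed to 426 to 568 FPKM in WT and 601 to 973 in KO, with 6 positive differences and 0 called. In such tissue pieces, fewer cells of a type and less RNA per cell cannot be told apart. The part of this mix of cells in the proteasome values below was not tested, and the main counts are also given without KO replicate 1 or 2.

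Proteasome transcripts were abundant, and 28 of the 44 genes averaged over 20 FPKM. The highest was Psmc5, an ATPase of the regulatory base, at 119.7 FPKM, followed by Psmc1 of the same ring and Psmb5 of the core. The 31 Psm genes for obligate subunits of the assembled particle spanned 15.3-fold, from Psmc5 down to the lid subunit gene Psmd11 at 7.83 FPKM. Adrm1 and Sem1, which lack a Psm name, are not among the 31. Within the alpha ring the span was 3.88-fold, from Psma6 at 71.1 to Psma3 at 18.3 FPKM, and within the beta ring 3.24-fold, from Psmb5 at 77.2 to Psmb7 at 23.8 FPKM. In FPKM, subunits that share a ring therefore differed more between genes than between libraries. Among the 42 tested genes the median coefficient of variation was 5.76% over WT and 6.50% over KO libraries. These levels use the deposited gene lengths, 899 bases for Psmb5 and 7265 for Psmd1, and another choice of transcript would shift the order and the spans. In reads the ring genes named here lay closer. Psmb5 had 1157 to 1517 reads per library and Psmb7, at 3421 bases, 1400 to 1698. Psma6, at 1234 bases, had 1495 to 1887 and Psma3, at 3894 bases, 1262 to 1485.

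Psma8 and Psmb11 were the only genes under the test minimum of 0.5 FPKM. Psma8, the alpha subunit known from testis, measured 0.448, 0.263 and 0.353 FPKM in WT and 0.440, 0.228 and 0.400 in KO, from 7 to 14 reads. Psmb11, the beta subunit known from thymus, stood at 0.0226, 0.0116 and 0.00960 FPKM in WT and 0.0111, 0.0115 and 0.0236 in KO, from 1 or 2 reads. The groups overlap for both genes, and no fold is given. Psmc3ip fits the name pattern but encodes a recombination factor and no subunit. It was the lowest tested gene at 1.81 FPKM, with 1.91, 1.87 and 1.44 in WT and 1.37, 2.25 and 2.05 in KO.

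**Figure D1:**
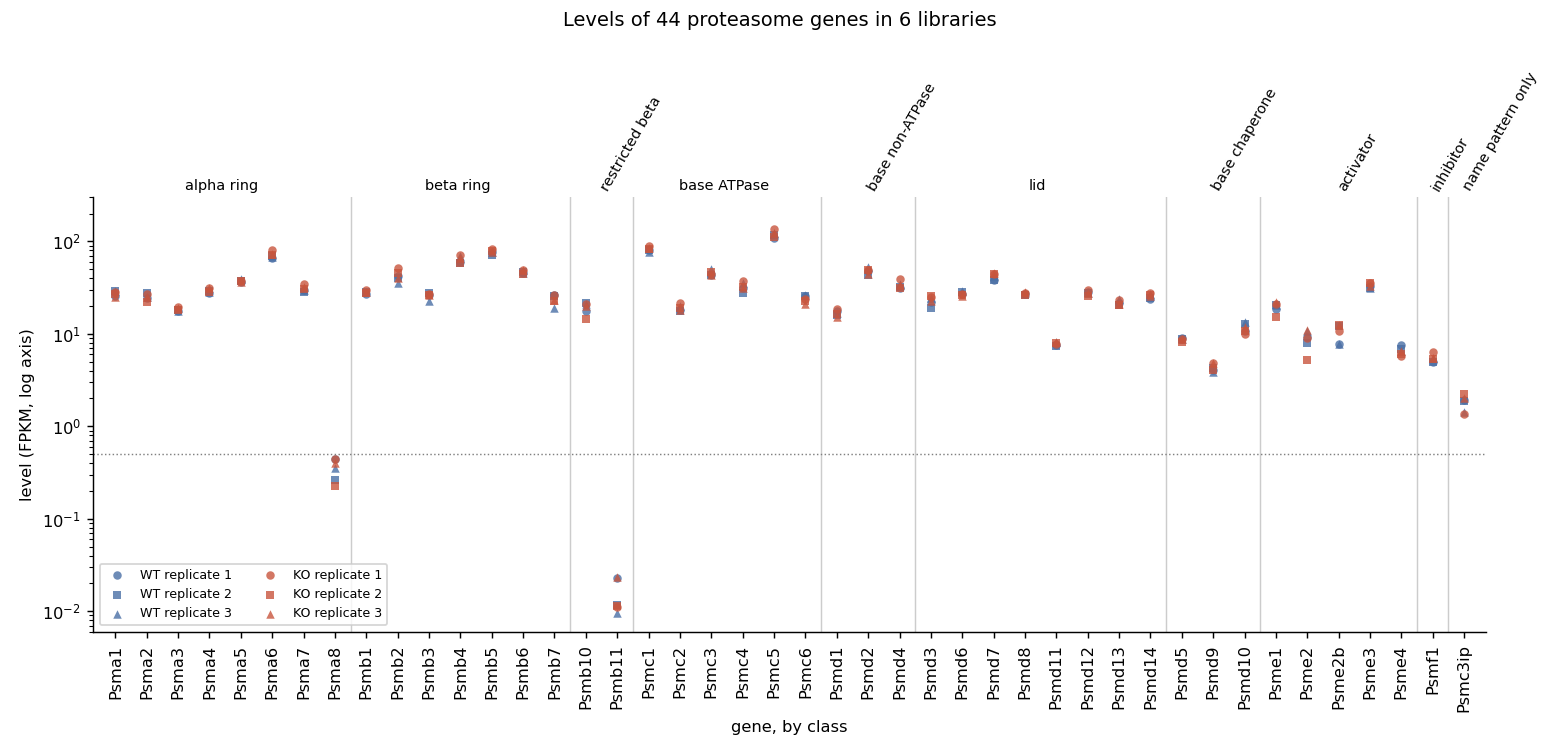
Level in FPKM on a log axis for the 44 genes, ordered by class, with a point for each of the 6 libraries (blue WT, red KO) and a dotted line at the test minimum of 0.5 FPKM. Points of a gene lie close together while genes differ, from Psmc5 at a mean of 119.7 FPKM to Psmb11 near 0.

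The comparison of KO with WT asks whether these genes differ with genotype. No proteasome gene passed the limma test, with 0 of 42 tested genes under an adjusted p of 0.05 and a lowest adjusted p of 0.271. Over all 16155 genes tested 0.0124% passed. At an unadjusted p under 0.05, 1 gene was higher in KO and 1 lower, which is 2.38% of the 42 in each direction, against 8.36% and 6.85% of all genes. With voom on reads recovered from the FPKM values, 0 passed the adjusted threshold, and 0 were higher and 2 lower (4.76%) at the unadjusted one, beside 6.28% and 10.2% of all genes. The 3 KO values all lay above the 3 WT values for 5 genes and below them for 3, or 11.9% and 7.14%, beside 11.8% and 10.8% of all genes.

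The same counts were made with each library left out, where 2 libraries face 3 and groups separate more often. Without KO replicate 1, 1 gene was higher and 1 lower at an unadjusted p under 0.05, beside 7.56% and 6.33% of all genes. Without KO replicate 2, Psmd7 and Psmd9 (4.76%) were higher and Psmc6 (2.38%) lower, beside 7.28% and 5.98% of all genes. KO lay wholly above WT for 7 genes without KO replicate 1 (16.7%, beside 17.25% of all genes), 11 without KO replicate 2 (26.2%, beside 17.23%) and 8 without KO replicate 3 (19.05%, beside 17.25%). Such genes numbered 5 without WT replicate 1 (11.9%, beside 17.1%), 9 without WT replicate 2 (21.4%, beside 15.1%) and 12 without WT replicate 3 (28.6%, beside 18.8%). KO lay wholly below WT for 6 genes without WT replicate 1 (14.3%, beside 15.4%) and for 3 or 4 with any of the other libraries left out (7.14% or 9.52%, beside 13.9% to 17.5%). The adjusted threshold was passed by 0 in each case.

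The differences were small. The median over the 42 genes was 0.050 on the log2(FPKM + 0.5) scale, KO minus WT. It was 0.0067 over all genes tested and 0.030 over those with at least 5 FPKM. The median of the 42 took the other sign, at -0.0071, -0.016 and -0.019, when libraries were rescaled to equal FPKM sums, to equal sums outside the mitochondrial genome or by quantiles. The median over all genes tested moved as well, to -0.044, -0.051 and -0.0080. It thus lay below that of the 42 under both sum scalings and above it under quantiles. Log2 differences above 0 were found for 27 of the 42 genes, or 64.3%. The share was 51.5% over all genes and 57.0% over those with at least 5 FPKM. Under the same 3 scalings, positive differences made up 45.2%, 42.9% and 45.2% of the 42, beside 40.8%, 39.4% and 48.3% of all genes. They were found for 22 genes without KO replicate 1 and for 31 without KO replicate 2. The values ran from -0.20 for Psmc6 to 0.38 for Psme2b. The 95% interval of the difference lay inside -0.5 to 0.5 (1.41-fold either way) for 40 of the 42 genes, and for 59.6% of all genes and 75.5% of those with at least 5 FPKM. The 2 exceptions were Psme2 and Psme2b.

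**Figure D2:**
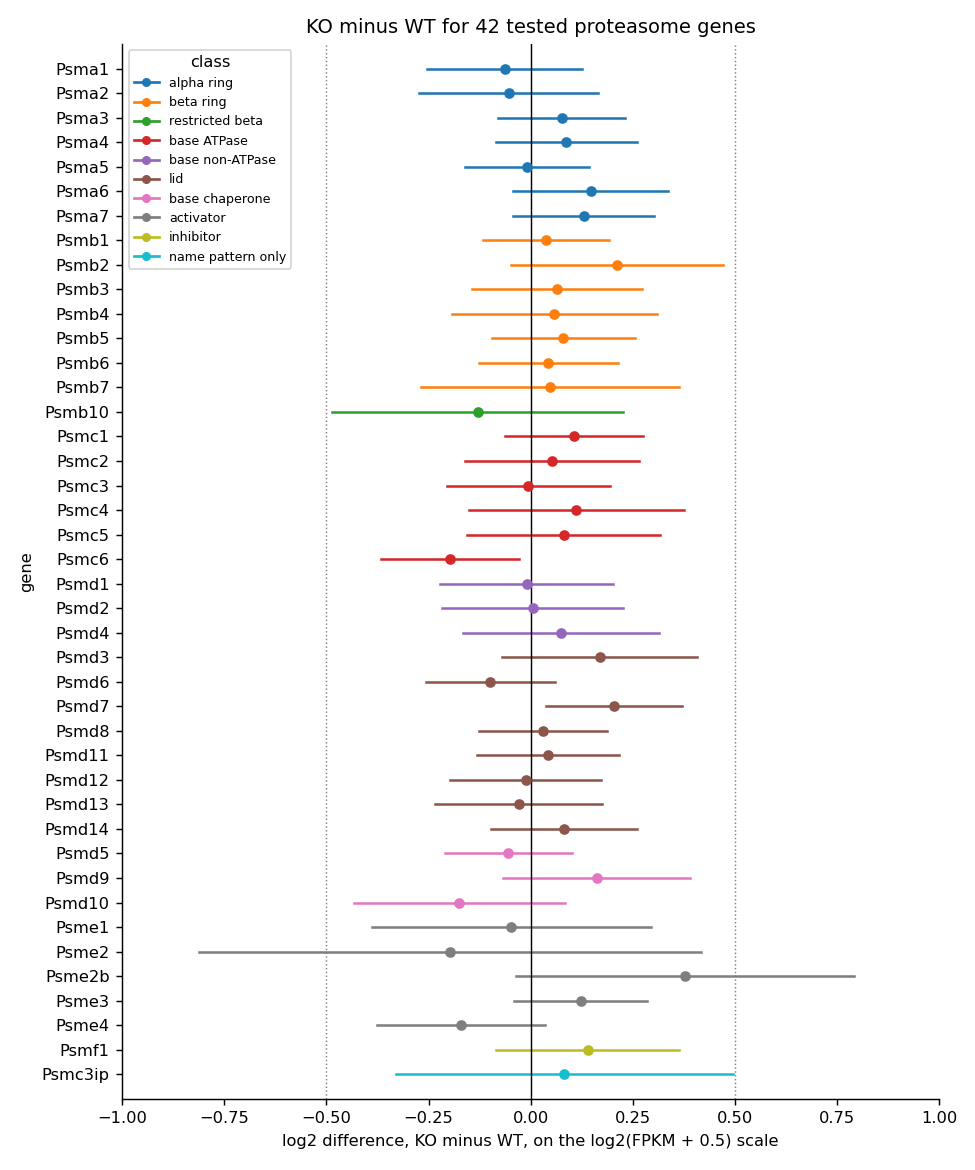
Log2 difference, KO minus WT, for the 42 tested genes by class, with points for the estimate, bars for the 95% interval and dotted lines at -0.5 and 0.5. The intervals of Psmd7 and Psmc6 leave out 0 before adjustment, and those of Psme2 and Psme2b reach past the dotted lines.

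The core particle gave 0 calls in its 14 constitutive genes, at a median log2 difference of 0.061. In the alpha ring 4 of the 7 tested genes had positive and 3 negative differences. Psma6 measured 65.7, 68.9 and 67.8 FPKM in WT and 81.3, 70.6 and 72.6 in KO (log2 0.15 ± 0.080, SE, limma adjusted p = 0.429). Its groups do not overlap, and KO replicate 1 lies far above the other 2 KO libraries. Without KO replicate 1 the difference was 0.086. Psma7 had the same order of groups, 28.7 to 29.7 FPKM in WT and 30.2 to 34.5 in KO, with a difference of 0.13 that was 0.080 without KO replicate 1. Psma1 at -0.06, Psma2 at -0.05 and Psma5 at -0.0082 were the genes of the ring on the lower side.

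The 3 catalytic beta subunits, whose N-terminal threonines cut peptide bonds, had overlapping groups. Psmb5 carries the chymotrypsin-like site (chromosome 14, 54614119 to 54618022, minus strand, GRCm38). It measured 75.8, 71.6 and 77.6 FPKM in WT and 83.3, 78.4 and 76.3 in KO, 75.0 ± 3.12 and 79.3 ± 3.60 (SD, n = 3 each). Psmb6, with the caspase-like site, was the steadiest in WT: 45.9, 46.4 and 45.9 FPKM there and 49.6, 44.3 and 48.7 in KO. Its WT values fall within the KO range. Psmb7, with the trypsin-like site, measured 26.3, 25.4 and 18.9 FPKM in WT and 26.4, 22.9 and 23.1 in KO, so that 1 WT library, replicate 3, was the lowest of the 6. Without WT replicate 3 its log2 difference went from 0.05 to -0.10, and it stayed uncalled (limma adjusted p = 0.636).

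All 7 constitutive beta genes had positive differences, from 0.04 for Psmb1 to 0.21 for Psmb2, none called, and 0 of the 7 had separate groups. Differences above 0 numbered 5 of the 7 without KO replicate 1 or without WT replicate 3, and 3, 2 and 1 under equal sums, equal sums outside the mitochondrial genome and quantile scaling. The signs of Psmb1, Psmb3, Psmb4, Psmb6 and Psmb7 turned under 3 or more of the 20 alternative settings, and that of Psmb5 under quantile scaling. Psmb2, a structural subunit of the ring, had the smallest p of the class: 42.1, 40.6 and 35.5 FPKM in WT and 51.4, 45.3 and 40.6 in KO (limma adjusted p = 0.410). WT replicate 3 was lowest and KO replicate 1 highest, and the highest WT value, 42.1, exceeds the lowest KO value, 40.6. Its difference of 0.21 was 0.14 without WT replicate 3 and 0.13 without KO replicate 1.

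In the base of the regulatory particle, the 6 ATPase genes had no common direction, with 4 differences above and 2 below 0. Psmc6 was the only proteasome gene lower in KO at an unadjusted p under 0.05. This ATPase gene (ENSMUSG00000021832, chromosome 14, 45329788 to 45349705, plus strand of GRCm38) stood at 25.5, 25.8 and 26.5 FPKM for WT against 23.8, 22.8 and 21.1 for KO. Each KO library lies below each WT library, by log2 -0.20 ± 0.072 (SE; unadjusted p = 0.0275, limma adjusted p = 0.282). It lay on that side under all 20 alternative settings, some of which could not turn the sign. The filters, the fit without trend or robust setting, the replicate block and median-ratio scaling leave the difference as it was. The difference was -0.24 without KO replicate 1, -0.21 without KO replicate 2 and -0.15 without KO replicate 3. The unadjusted p was over 0.05 without KO replicate 3 (0.104) and without WT replicate 1 (0.0587), 2 (0.0646) or 3 (0.0660).

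Psmc1 was the ATPase gene with all KO values above WT, 77.1 to 81.7 FPKM in WT and 83.0 to 89.8 in KO (log2 0.11, limma adjusted p = 0.515). Psmc5, the highest gene, measured 109.1, 117 and 122 FPKM in WT and 136.9, 111 and 122 in KO, an overlap over most of the range. Differences of Psmc2, Psmc3 and Psmc4 were 0.05, -0.0056 and 0.11, with overlap in each. The non-ATPase Psmd genes of the base encode the scaffold and a ubiquitin receptor. Psmd2 measured 47.6, 43.0 and 52.2 FPKM in WT and 49.4, 49.3 and 44.3 in KO, a log2 difference of 0.0048 with a 95% interval of -0.22 to 0.23. Psmd4, the ubiquitin receptor gene, measured 31.3, 32.2 and 34.6 FPKM in WT and 39.4, 31.01 and 33.4 in KO, with only KO replicate 1 outside the WT range on the high side. Psmd1 had a difference of -0.01.

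The lid held the proteasome gene with the smallest p. Psmd7, a scaffold partner of the lid's deubiquitinase (ENSMUSG00000039067, chromosome 8, 107580381 to 107588464, minus strand, GRCm38), measured 37.8, 37.9 and 41.8 FPKM in WT and 44.6, 44.9 and 45.9 in KO. The groups do not overlap, and the SD over the 3 KO libraries was 0.661 FPKM. The log2 difference was 0.20 ± 0.071 (SE; unadjusted p = 0.0234, limma adjusted p = 0.271), and by p it ranked 1393 of 16155 genes. It was 0.15, 0.14 and 0.14 after equal sums, equal sums outside the mitochondrial genome and quantile scaling, with unadjusted p from 0.0821 to 0.240. That p was also over 0.05 without WT replicate 1 (0.0894), WT replicate 2 (0.0795) or KO replicate 3 (0.0714). Psmd14, which encodes that deubiquitinase, had a difference of 0.08 with overlapping groups, 24.1 to 27.2 FPKM in WT and 25.98 to 27.5 in KO. Psmd6 lay on the other side without overlap, 27.0 to 29.3 FPKM in WT and 25.7 to 27.0 in KO (log2 -0.10, limma adjusted p = 0.515). Its lowest WT value and highest KO value are equal to 3 digits. The other 5 lid genes, Psmd3, Psmd8, Psmd11, Psmd12 and Psmd13, overlapped, with differences from -0.03 to 0.17.

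Psmd5, Psmd9 and Psmd10 encode chaperones that help assemble the base and are absent from the finished particle. Psmd9 measured 4.07, 4.27 and 3.83 FPKM in WT and 4.86, 4.08 and 4.88 in KO (log2 0.16, limma adjusted p = 0.467), with KO replicate 2 inside the WT range. Psmd10, also known as gankyrin, is the 1 gene of the 44 on the X chromosome. It measured 10.7, 12.8 and 13.6 FPKM in WT and 9.95, 10.7 and 11.9 in KO, and its lowest value is in KO replicate 1, the library with Xist. The log2 difference was -0.17 with all libraries, -0.12 without that one, -0.27 without WT replicate 1 and -0.11 without WT replicate 3. Psmd5 was the steadiest of these genes, 8.77 to 9.09 FPKM in WT and 8.26 to 8.71 in KO, separate by a narrow margin at log2 -0.06.

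The 5 activator genes had differences from -0.20 to 0.38, beside -0.20 to 0.21 for the 31 Psm genes of the particle. Psme3, the nuclear activator PA28 gamma, measured 32.7, 31.5 and 31.3 FPKM in WT and 35.6, 35.7 and 32.8 in KO (log2 0.12, limma adjusted p = 0.441). The groups are separate, with WT replicate 1 and KO replicate 3 side by side. Psme4, the activator PA200, had 6.49 to 7.54 FPKM in WT and 5.77 to 6.53 in KO (log2 -0.17, limma adjusted p = 0.399). Psmf1, the gene of the inhibitor PI31, had 4.94, 4.998 and 5.51 FPKM in WT and 6.39, 5.34 and 5.47 in KO. Only KO replicate 1 lies above its WT range, and without it the difference of 0.14 was 0.065.

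Psme1 and Psme2 encode the paired subunits of PA28, and Psmb10 replaces Psmb7 in the immunoproteasome; all are known to be induced by interferon. They shared 1 feature, a low value in KO replicate 2. Psmb10 measured 17.5, 21.7 and 21.2 FPKM in WT and 20.8, 14.6 and 20.1 in KO. Psme1 measured 18.7, 20.4 and 20.6 FPKM in WT and 21.1, 15.1 and 22.2 in KO, and Psme2 9.34, 8.04 and 10.8 in WT and 9.10, 5.20 and 11.0 in KO. KO replicate 2 is the lowest of the 6 libraries for all 3, and KO replicates 1 and 3 lie in or near the WT range. The log2 differences were -0.13, -0.05 and -0.20 with all libraries and 0.03, 0.12 and 0.10 without KO replicate 2, none called. Among 14 interferon-induced genes, Psmb8 and Psmb9 included, 0 were called or had separate groups. Their median relative to the WT mean was log2 -0.13 in KO replicate 2 and -0.21 in WT replicate 1. Psmb10 and Psme1 were also lower in WT replicate 1 than in any library but KO replicate 2, and Psme2 was not. Microglial markers summed to 140 to 162 FPKM in WT and 127 to 152 in KO, with negative differences for 6 of 6, and their part in these values was not tested.

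**Figure D3:**
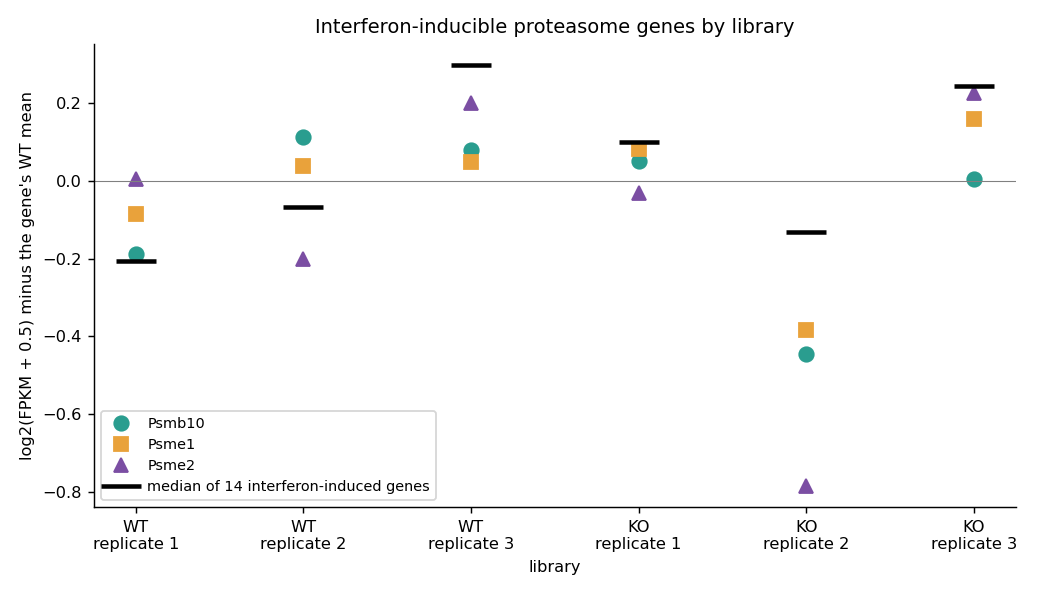
Psmb10, Psme1 and Psme2 in each library as log2(FPKM + 0.5) minus the gene's WT mean, with a black bar for the median of 14 interferon-induced genes. KO replicate 2 is lowest for the 3 proteasome genes, and the median of the 14 is lowest in WT replicate 1 and next lowest in KO replicate 2.

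Psme2b is a copy of Psme2 whose deposited length of 837 bases equals its span on the chromosome (chromosome 11, 48945354 to 48946190, GRCm38), that is, without introns. It had the largest difference of the 42 genes: 7.84, 12.2 and 7.75 FPKM in WT and 10.8, 12.5 and 12.5 in KO, log2 0.38 ± 0.18 (SE, limma adjusted p = 0.363). WT replicate 2 lies among the KO values, and without it the difference was 0.58 (unadjusted p = 0.00103, limma adjusted p = 0.364). Without WT replicate 1 or 3 it was 0.28 or 0.27 (unadjusted p = 0.189 and 0.202, limma adjusted p = 0.589 and 0.536). The treatment of reads shared between the copies is not known, so both genes are uncertain. Summed over both, in CPM (reads of these genes scaled to all reads in genes), the values were 23.1, 24.7 and 26.6 in WT and 24.9, 19.1 and 30.0 in KO, with KO replicates 2 and 3 at the bottom and top.

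By library, the proteasome genes stood highest in KO replicate 1. The median position of the 42 genes relative to their own WT mean was log2 -0.016, -0.0089 and 0.040 in the WT libraries, then 0.11, -0.0041 and 0.044 in the KO libraries. KO replicate 2 thus lay among the WT libraries, and KO replicate 3 beside WT replicate 3. KO replicate 1 held the highest of the 6 values for 19 genes, 45.2% of them, and for 15.5% of all genes tested. All 7 constitutive beta genes were above their WT mean in that library. Without KO replicate 1 the median difference over the 42 genes was 0.0071, beside 0.010 over all genes, and 22 were above 0. Without KO replicate 2 it was 0.085, beside 0.0046 over all genes, with 31 above 0. The excitatory marker sum was highest in KO replicate 2, at 886 FPKM, beside 615 in KO replicate 1.

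**Figure D4:**
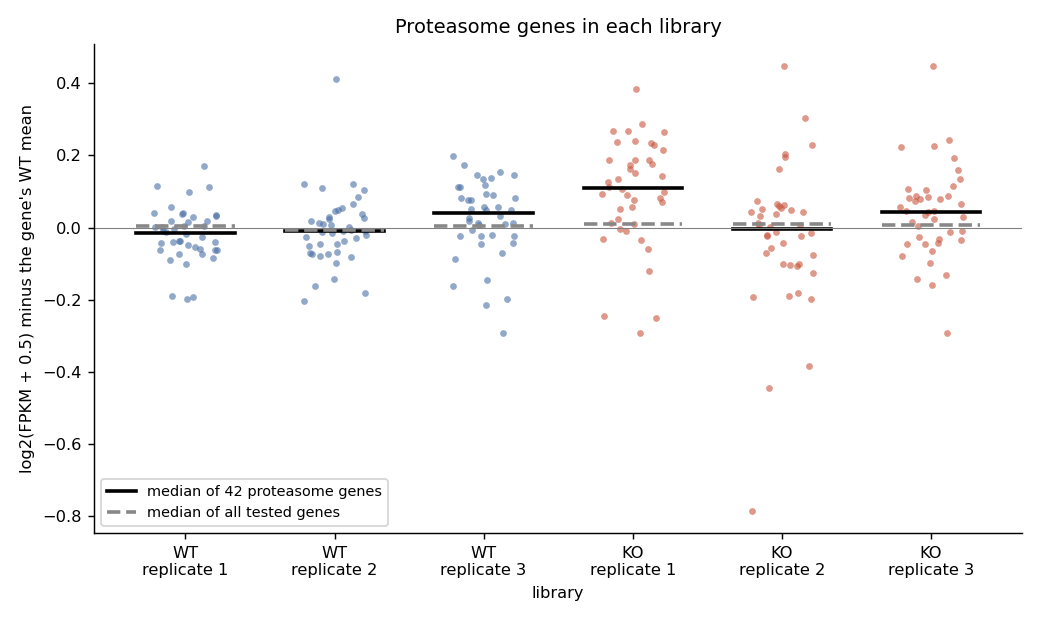
Position of the 42 tested genes in each library, as log2(FPKM + 0.5) minus the gene's mean over the 3 WT libraries; black bars are the medians of these genes and dashed grey bars those of all tested genes. The black bar is highest in KO replicate 1, at 0.11, and near 0 in KO replicate 2.

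The proteasome depends on genes without a Psm name or with another letter, and 31 of these were tested. Of the 31, 0 passed the adjusted threshold, and 3 were higher and 1 lower in KO at an unadjusted p under 0.05 (9.68% and 3.23%, beside 8.36% and 6.85% of all genes). KO lay wholly above WT for 7 of them and wholly below for 2 (22.6% and 6.45%, beside 11.8% and 10.8%). Their median log2 difference was 0.019, and it took the other sign under equal sums (-0.038), equal sums outside the mitochondrial genome (-0.047), quantile scaling (-0.0078) and voom (-0.025). The median over all genes tested was -0.044, -0.051, -0.0080 and -0.038 in these settings. Ubb, a polyubiquitin gene whose transcript encodes ubiquitin in tandem, was among those higher. It measured 439.6, 437.5 and 494 FPKM in WT and 556, 511 and 574 in KO (log2 0.26, limma adjusted p = 0.286). Every KO library lies above every WT library. Rps27a, which encodes ubiquitin fused to a ribosomal protein, did not share this order. It measured 104.5, 115 and 36.0 FPKM in WT and 50.3, 44.8 and 55.9 in KO, with WT replicate 3 below every KO library, and it has copies elsewhere in the genome that make its level uncertain.

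Uba6, an alternative ubiquitin-activating enzyme, was the 1 lower gene, at 4.61, 4.25 and 3.68 FPKM in WT and 2.70, 3.52 and 3.29 in KO (log2 -0.35, limma adjusted p = 0.275). The main enzyme gene Uba1 had a difference of 0.09 with overlap. Ufd1, an adaptor of the unfoldase VCP, measured 17.4, 16.4 and 17.5 FPKM in WT and 19.94, 19.965 and 18.6 in KO (log2 0.19, limma adjusted p = 0.287). Vcp itself had 0.07. Ngly1, the deglycosylase that processes NRF1, was at 3.97, 4.20 and 4.54 FPKM in WT and 3.60, 3.78 and 3.56 in KO (log2 -0.19, limma adjusted p = 0.345). The shuttle factor gene Rad23b had 30.85, 26.1 and 26.2 FPKM in WT and 30.5, 34.6 and 31.3 in KO (log2 0.21, limma adjusted p = 0.341). Here the lowest KO value lies just under the highest WT value.

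Nfe2l1 measured 70.7, 70.2 and 73.2 FPKM in WT and 74.3, 80.5 and 75.7 in KO. The KO values lie above the WT values by log2 0.10 ± 0.070 (SE, limma adjusted p = 0.512), highest in KO replicate 2. A link between this transcript and the proteasome genes was not tested. Nfe2l2, which encodes the related factor NRF2, had a difference of 0.0014. Among 6 assembly factor genes 0 were called. Psmg2 had separate groups (13.5 to 15.3 FPKM in WT and 15.5 to 18.3 in KO), and Pomp, the maturation factor of the core, overlapped at log2 0.04. Of 7 partner genes, Adrm1, a ubiquitin receptor of the base, had separate groups at 12.9 to 13.8 and 14.2 to 16.1 FPKM (log2 0.16, limma adjusted p = 0.353), and the proteasome-bound deubiquitinase genes Usp14 and Uchl5 had differences of 0.02 and -0.04.

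**Figure D5:**
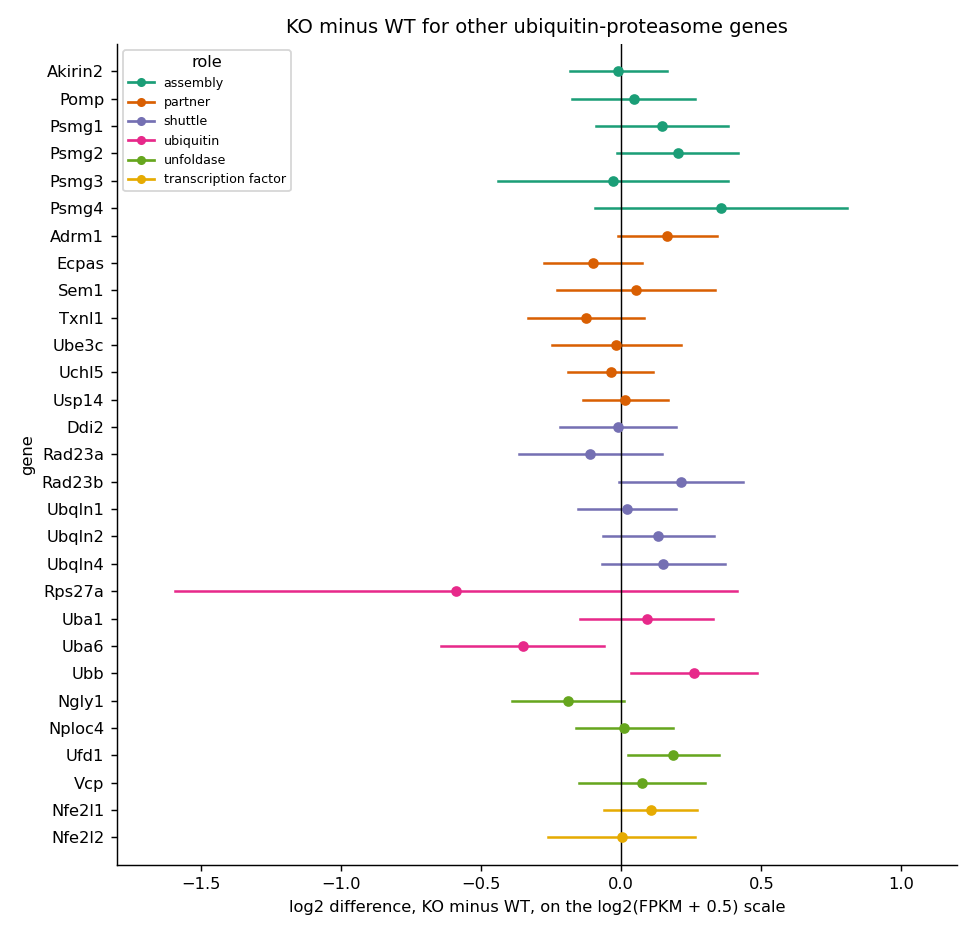
Log2 difference, KO minus WT, for other genes of the ubiquitin-proteasome pathway by role, with points for the estimate and bars for the 95% interval. Rps27a lies farthest to the left at -0.59, with the widest interval, and the interval of Ubb, at 0.26, leaves out 0 before adjustment.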

How the data were processed

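Total RNA was column-purified and sequenced from SMARTer mRNA libraries, per the labels' protocols. The authors deposited 1 table of FPKM values with gene coordinates and lengths; per the submitters' processing notes the build was GRCm38 (mm10). Aligner, counting program, annotation release and use of strand are not stated in the sources used here. Of the members, 21 overlap another gene model, 17 of them on the opposite strand. All sample columns were matched by name. FPKM times gene length gave whole multiples of 1 read in 100% of nonzero values (tolerance 0.01 read). Tested members had 47 to 4580 reads per library. Reads carry no molecular identifiers, and p-values measure only the spread between these samples.

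Genotypes were compared by limma-trend, robust setting (limma 3.58.1, R 4.3.3), on log2(FPKM + 0.5) for genes averaging at least 0.5 FPKM, with Benjamini-Hochberg adjustment over all 16155 genes; the scale understates changes of low genes. The script was tested on simulated data. Members, classes and lists were chosen with earlier results of these data known. Values in every sample are given for the member with the smallest p and with the highest level in each class, the catalytic subunits, members separate at an unadjusted p under 0.05 and members under the minimum; for the 6 pathway genes with the smallest p; and for Nfe2l1. Other members named with values were chosen after these were seen. Alternatives were pseudocounts of 0.1 and 1, filters, scalings, weights, a replicate block, voom, removal of the length trend and each library left out. The replicate numbers did not pair the samples. Of 32 pathway genes, 31 were analysed here, and single values of some are not reported here.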

Additional observations from a re-analysis of the deposited data

How the results depend on the processing

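The count of proteasome genes past an adjusted p of 0.05 was 0 under all 20 alternative fits and at a threshold of 0.1. The median difference over the proteasome genes went from 0.050 to -0.0071 with equal FPKM sums, -0.016 with equal sums outside the mitochondrial genome and -0.019 with quantile normalization, and was 0.0071 to 0.085 with each library left out. It was 0.045 without Psmc3ip and Psme2b and 0.052 over the Psm genes of the assembled particle. The pathway median of 0.019 went to -0.038, -0.047 and -0.0078 under the same 3 scalings, to -0.025 with voom, to 0.064 with array quality weights and to values between 0.0089 and 0.063 with each library left out. The median over all genes tested went from 0.0067 to -0.044, -0.051 and -0.0080 under the 3 scalings and to -0.038 with voom. The cause of these changes was not tested.

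Genes higher at an unadjusted p under 0.05 numbered 0 under the 3 scalings and with voom (4.085% to 6.77% of all genes). They numbered 0 to 2 with each library left out (5.34% to 7.74% of all genes). Lower genes numbered 3 with equal sums outside the mitochondrial genome, namely Psmc6, Psmd6 and Psme4 (7.14%, beside 11.3% of all genes). They numbered 2 with quantile normalization and 2 with voom (4.76%, beside 8.23% and 10.2%). With each library left out there were 0 to 1 (4.07% to 6.71% of all genes). Genes wholly above WT numbered 0, 1 and 1 under the 3 scalings and 1 with voom (6.07% to 9.96% of all genes). They numbered 5 to 12 with each library left out (15.1% to 18.8% of all genes). With the replicate block, 1 gene was higher at an unadjusted p under 0.05 (2.38%, beside 5.66% of all genes). Lower genes numbered 0 there, beside 4.64% of all genes, and Psmd7 (0.0702) and Psmc6 (0.0867) were over that p. These counts do not always hold the same genes. Same-numbered libraries had correlations of -0.090, -0.14 and -0.066, so the numbers were not taken to pair the samples.

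Of 495 values of 25 single genes, 471 kept direction, 24 changed sign and 0 became calls. None of these genes was called in the main fit. The filters, the fit without trend or robust setting, the replicate block and median-ratio scaling could not change a difference. Part of the 471 was therefore fixed in advance. Psmb5 was -0.022 with quantile normalization. Psmb6 was -0.014, -0.023, -0.033 and -0.00087 under the 3 scalings and voom. Psmb7 was -0.0092, -0.018 and -0.016 under the scalings and -0.028 with array weights. Psmd2 was -0.053, -0.061 and -0.083 under the scalings, -0.0033 with the length trend removed, -0.0029 with array weights and -0.040 with voom. With a library left out, Psmb7 ranged from -0.098 to 0.13, Psmd2 from -0.066 to 0.073, Psmc3ip from -0.028 to 0.25, Psmb10 from -0.22 to 0.027, Psmd4 from -0.022 to 0.15 and the interferon-induced median from -0.063 to 0.23.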
